A study of Mus musculus with 15 samples.

Results

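Creatine kinases and the genes that supply creatine formed a set of 7 genes, taken by symbol from the 55401 genes of each library: the 4 creatine kinases Ckm, Ckmt2, Ckb and Ckmt1, the creatine transporter gene Slc6a8, and the creatine synthesis genes Gatm and Gamt. Their RNA was followed in hearts of male C57BL6 mice, 12 weeks of age, treated for 4, 8 or 11 days with subcutaneous isoproterenol, an agonist of β-adrenergic receptors, at a dose of 50 mg/kg/day, or with saline. The data were 15 libraries of total RNA, 4 of saline, 4 of 4 days, 3 of 8 days and 4 of 11 days of isoproterenol, and a library is named by its group and letter, such as 8-day A. All 3 times were compared with the same saline libraries, whose mice were dosed for a similar period, and the study left out 1 replicate of the 8-day group. The labels name no engineered allele in these mice, and a small frozen part of each heart was used, so that whole tissue, not cardiomyocytes, was measured.

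Creatine kinases move the phosphate of ATP onto creatine and back, so that phosphocreatine can refill ATP where muscle uses it. In the heart, the muscle-type enzyme of Ckm sits at the sarcomere and in the cytosol, the sarcomeric mitochondrial enzyme of Ckmt2 sits between the mitochondrial membranes, and the brain-type enzyme of Ckb is found in many cell types beside muscle. Heart muscle takes up most of its creatine from blood through the transporter of Slc6a8, whereas Gatm and Gamt make creatine from arginine, glycine and a methyl group, mainly in kidney and liver.

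Of the 7 genes, Slc6a8, Ckb, Gatm and Gamt were higher than in saline after 4 days, by 1.32-fold, 1.35-fold, 1.62-fold and 2.04-fold. At 8 and 11 days Slc6a8 alone passed the test, at 1.48-fold and 1.37-fold of saline. By 11 days Ckb and Gatm had fallen again, each below its 4-day level by a tested difference. The abundant kinases Ckm and Ckmt2 did not pass edgeR's test at any time with all libraries and TMM scaling, and the settings under which Ckm did are given with its values.

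Levels are given as CPM, the counts per 10⁶ counts of a library, scaled by TMM over all 15 libraries, which compares libraries for a gene, and as FPKM, which divides by gene length and so allows genes to be set side by side. Libraries held 25.4 to 117.8 × 10⁶ counts, of which genes of the mitochondrial genome held 47.5 to 58.4%. In 8-day A, 15.8% of the counts fell on Lars2 and CT010467.1, against 0.0116 to 0.0916% in the other libraries, and the TMM factor of 8-day A was 0.704 against 0.82 to 1.19 elsewhere. The 14 cardiomyocyte markers summed to 72198 to 86219 CPM over all libraries. Of 9 skeletal muscle markers, the 7 tested summed to at most 1.27 CPM, and the 3 atrial markers to at most 1.14 CPM. In such bulk samples fewer cells of a type and less RNA per cell cannot be told apart. The labels do not say that each library of a group came from another mouse, and p-values then measure only the spread between these libraries.

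The stretch around the start is shown for the 3 creatine kinases with measurable RNA, of which Ckb was called at 4 days and Ckm and Ckmt2 were not, from 250 bases before to 50 bases after the start in the RefSeq table of GRCm38.p6. Capitals mark matches to TATANA, the core of a TATA box with N for any base, and to CCAAT, on either strand.
Ckm, chr7:19410844-19411143, plus strand: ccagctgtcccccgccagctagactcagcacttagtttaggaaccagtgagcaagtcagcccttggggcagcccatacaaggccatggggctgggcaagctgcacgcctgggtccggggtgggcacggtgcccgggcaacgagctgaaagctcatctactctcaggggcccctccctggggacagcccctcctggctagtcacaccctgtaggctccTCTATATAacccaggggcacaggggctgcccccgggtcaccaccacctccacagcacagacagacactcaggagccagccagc
Ckmt2, chr13:91876836-91877135, minus strand: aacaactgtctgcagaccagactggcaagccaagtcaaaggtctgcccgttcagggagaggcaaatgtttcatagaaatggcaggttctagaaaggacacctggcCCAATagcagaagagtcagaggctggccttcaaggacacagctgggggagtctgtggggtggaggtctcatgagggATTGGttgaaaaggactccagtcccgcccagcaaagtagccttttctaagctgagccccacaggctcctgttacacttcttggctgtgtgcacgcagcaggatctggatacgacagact
Ckb, chr12:111672289-111672588, minus strand: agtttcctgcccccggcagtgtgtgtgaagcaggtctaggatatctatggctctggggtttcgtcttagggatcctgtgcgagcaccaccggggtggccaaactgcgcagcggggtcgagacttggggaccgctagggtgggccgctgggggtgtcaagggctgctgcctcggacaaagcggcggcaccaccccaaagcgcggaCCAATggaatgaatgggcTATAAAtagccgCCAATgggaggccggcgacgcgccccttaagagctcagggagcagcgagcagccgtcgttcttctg

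Positions are counted from the start, with -1 for the base before it, and name the leftmost base of a match. Ckm held TATANA at -31, on both strands, with an overlapping match on the minus strand at -33. Ckb held TATANA at -28 between CCAAT at -46 and CCAAT at -16. Ckmt2 held no TATANA. Its CCAAT matches lay at -145 and, on the other strand, at -69. TATANA was found in 24.7% and CCAAT in 37.4% of all 32851 windows of 300 bases in that table. The E-box CANNTG, which reads the same on both strands, was present in 72.3% of windows, and was found in Ckm at -249 and in Ckmt2 at -248, -189, -153 and -107. AGGTCA, a sequence that nuclear receptors bind, was present in 16.3% of windows and in none of these 3. Windows existed for 6 of the 7 genes. The Gatm window held 2 CCAAT matches and no TATANA, whereas the Gamt window held neither. All matches are letters in a window and were not tested for use.

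In saline hearts Ckm and Ckmt2 RNA stood far above the other members per length. Ckm was at 525 ± 41.8 FPKM and Ckmt2 at 526 ± 33.2 FPKM (mean ± SD, n = 4), and these neighbours in the order did not differ beyond their spread. Slc6a8 followed at 19.8 ± 1.85 FPKM and Ckb at 7.42 ± 0.848 FPKM, and the ranges of these genes did not overlap. Gamt lay at 1.38 ± 0.221 FPKM and Gatm at 0.598 ± 0.0838 FPKM, again without overlap. Ckmt1, the ubiquitous mitochondrial kinase, was close to absent, with 0 to 14 counts in any library.

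**Figure D1:**
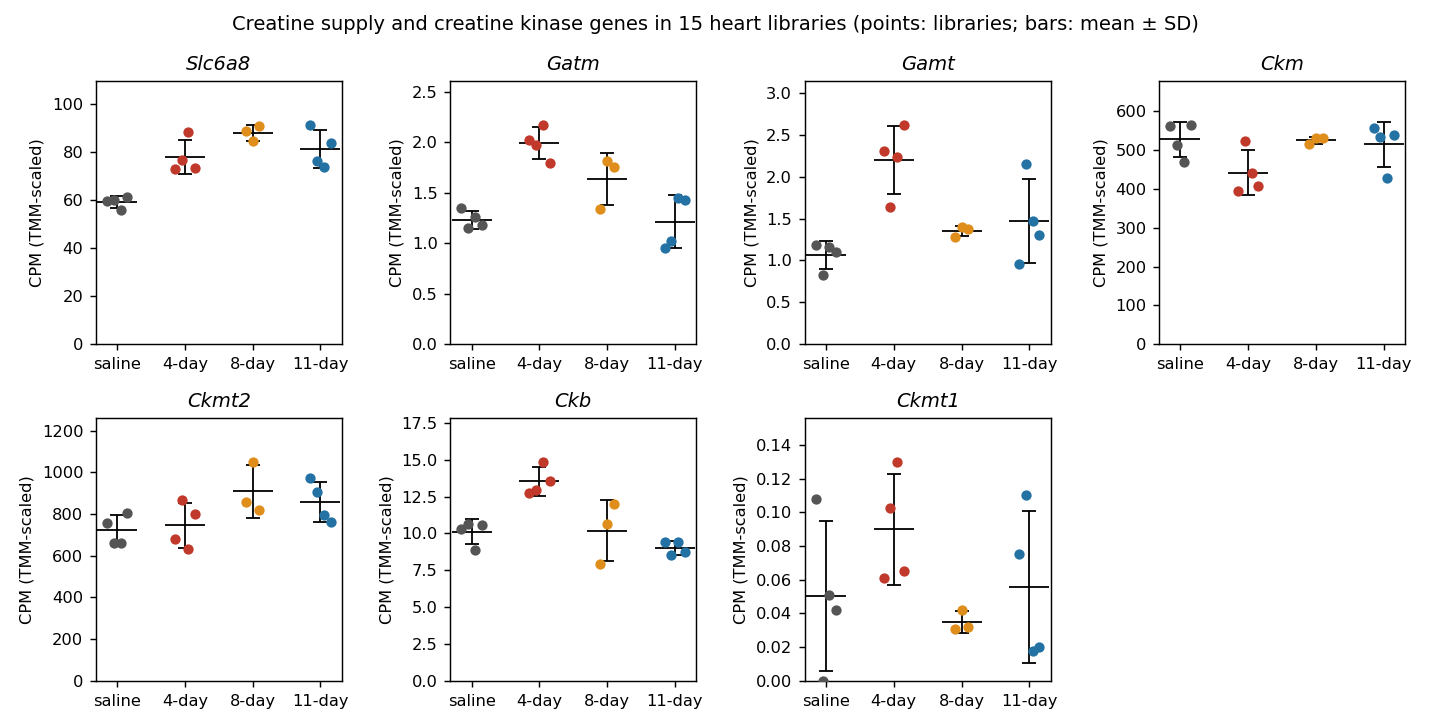
TMM-scaled CPM of the 7 genes (y axes, linear from 0, a scale of its own for each gene) in the saline, 4-day, 8-day and 11-day groups; points are libraries, bars the mean ± SD of 4, 4, 3 and 4 libraries. All treated points of Slc6a8 lie above the saline points, whereas Ckb, Gatm and Gamt stand clear of saline at 4 days in all 4 libraries.

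Slc6a8 (ENSMUSG00000019558.14, chrX:73673150-73682502, plus strand) encodes the sodium- and chloride-dependent carrier that brings creatine into the cell. In saline A to D it was at 59.6, 60.1, 55.8 and 61.3 CPM. After 4 days it was at 72.8, 76.9, 88.2 and 73.4 CPM in libraries A to D. After 8 days it was at 88.8, 84.4 and 90.7 CPM in A to C. All treated libraries of these times stood above all saline libraries. The 11-day libraries A to D, at 91.3, 76.4, 73.9 and 83.9 CPM, did so too. The log2 fold change was 0.40 ± 0.083 (SE, edgeR adjusted p = 0.00837) at 4 days, 0.57 ± 0.086 (edgeR adjusted p = 0.00366) at 8 days and 0.45 ± 0.079 (edgeR adjusted p = 0.00673) at 11 days. The order of the means was saline, 4 days, 11 days and 8 days, and no pair of treated times differed by edgeR's test. Between 8 and 4 days the log2 difference was 0.18 with an interval of -0.003 to 0.36, and between 11 and 4 days 0.06 with an interval of -0.10 to 0.23.

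The 8-day call of Slc6a8 was lost where libraries were scaled by size alone (log2 fold change 0.49, edgeR adjusted p = 0.461), with 8-day A in the group. On log2(FPKM + 1) the 8-day and 11-day calls were lost as well, at log2 differences of 0.44 and 0.46 (limma adjusted p = 0.703 and 0.102). In FPKM, Slc6a8 spanned 17.0 to 21.1 in saline, 26.0 to 35.6 at 4 days, 22.2 to 33.2 at 8 days and 24.5 to 30.6 at 11 days, so that the treated ranges stayed above saline on this scale too.

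Gatm (ENSMUSG00000027199.14, chr2:122594467-122611303, minus strand) encodes the amidinotransferase that joins arginine and glycine to guanidinoacetate in the opening step of creatine synthesis. Its counts were low, 28 to 234 in a library. Saline A to D held 1.35, 1.15, 1.26 and 1.18 CPM. The 4-day libraries A to D held 2.03, 1.98, 2.17 and 1.80 CPM, all above saline. The 8-day libraries held 1.34, 1.82 and 1.75 CPM, with 8-day A inside the saline range. The 11-day libraries held 0.956, 1.02, 1.45 and 1.42 CPM, 2 below and 2 above the saline range. Gatm rose at 4 days, by 0.69 ± 0.15 on the log2 scale (SE, edgeR adjusted p = 0.00883). At 8 days the difference was 0.39 ± 0.20 (edgeR adjusted p = 0.456), and at 11 days it was -0.03 ± 0.18 (edgeR adjusted p = 0.971). With effective lengths as offsets the 4-day value was 0.58 (edgeR adjusted p = 0.0587), and on log2(FPKM + 1) it was 0.35 (limma adjusted p = 0.0605), both past no threshold. Gatm FPKM was only 0.51 to 0.71 in saline and 0.89 to 1.24 at 4 days. The added 1 shrinks a log2 difference of such low values, so 0.35 is not to be set beside 0.69 as an effect size.

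Gamt (ENSMUSG00000020150.13, chr10:80258151-80261012, minus strand) encodes the methyltransferase that turns guanidinoacetate into creatine. It too was sparse, at 26 to 265 counts in a library. Saline A to D held 1.19, 0.824, 1.17 and 1.10 CPM. The 4-day libraries held 2.31, 1.64, 2.24 and 2.62 CPM. The 8-day libraries held 1.28, 1.396 and 1.37 CPM, and both of these groups lay above saline in every library. The 11-day libraries were the most spread, at 0.956, 2.15, 1.47 and 1.305 CPM, with 11-day A inside the saline range and 11-day B near the 4-day libraries. Gamt rose at 4 days, by 1.03 ± 0.18 on the log2 scale (SE, edgeR adjusted p = 0.00335), with an interval of 0.63 to 1.42 that overlapped that of Gatm, 0.38 to 1.01. The values at 8 days, 0.31 ± 0.22 (edgeR adjusted p = 0.609), and at 11 days, 0.41 ± 0.23 (edgeR adjusted p = 0.399), passed no threshold.

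**Figure D2:**
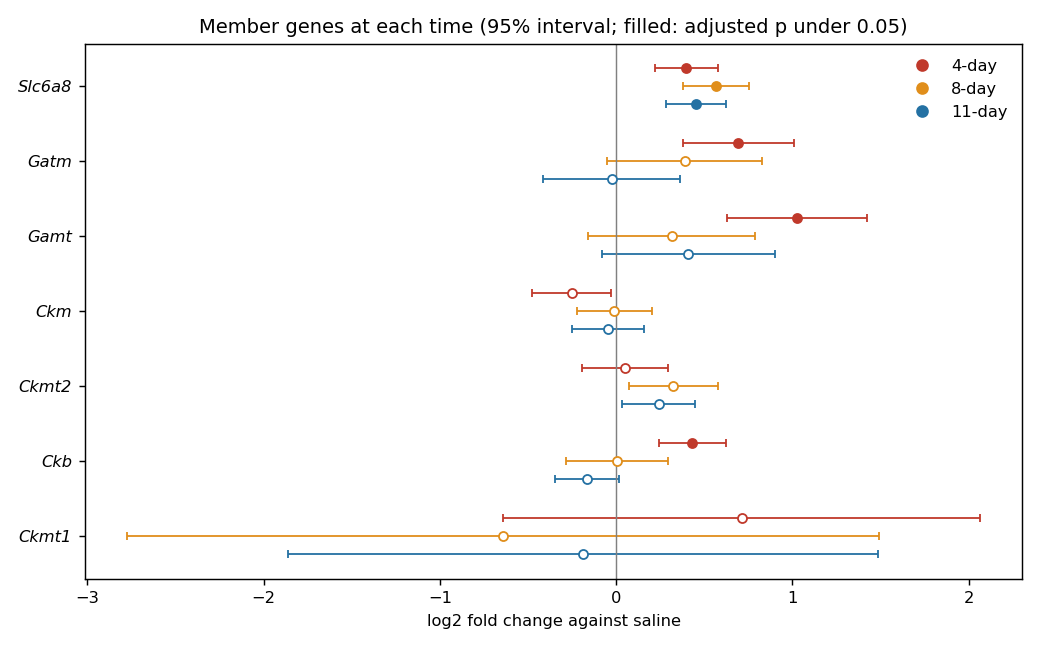
Log2 fold change of the 7 genes against saline (x axis) after 4, 8 and 11 days; dots are edgeR estimates, bars their 95% intervals, and filled dots have an adjusted p under 0.05. Slc6a8 lies at 0.40 to 0.57 at all 3 times, whereas Gatm and Ckb return towards 0 by 11 days and Ckmt1 has wide intervals.

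Ckb (ENSMUSG00000001270.9, chr12:111669361-111672338, minus strand) rose at 4 days only among the comparisons with saline. Saline A to D held 10.3, 10.6, 8.88 and 10.6 CPM. The 4-day libraries held 12.7, 12.9, 14.9 and 13.6 CPM, all above saline. At 8 days the libraries were spread over 7.90, 10.7 and 12.0 CPM, with A below the saline range, B just above it and C above it. At 11 days they held 9.41, 8.51, 9.43 and 8.75 CPM, all below 10 CPM and all below the 4-day libraries. The log2 fold change was 0.43 ± 0.088 (SE, edgeR adjusted p = 0.00748) at 4 days, 0.007 ± 0.14 (edgeR adjusted p = 0.994) at 8 days and -0.16 ± 0.085 (edgeR adjusted p = 0.354) at 11 days. Its pseudogenes Ckb-ps1 and Ckb-ps2 held 0 counts in every library.

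Ckm (ENSMUSG00000030399.2, chr7:19404776-19422841, plus strand) stood at 561, 513, 471 and 565 CPM in saline A to D. After 4 days it stood at 395, 523, 441 and 408 CPM, with A, C and D below the lowest saline library and B inside the saline range. The 8-day libraries, at 515, 531 and 531 CPM, and the 11-day libraries, at 558, 533, 428 and 540 CPM, overlapped saline. In FPKM, Ckm spanned 482 to 572 in saline and 455 to 551 at 4 days, with overlap. The 4-day log2 fold change was -0.25 ± 0.10 (SE, edgeR adjusted p = 0.169), with an interval of -0.48 to -0.03. It passed the threshold in 2 of 21 alternatives, with limma voom and quality weights (-0.31, adjusted p = 0.0346) and without 4-day B (-0.34, edgeR adjusted p = 0.0423). Scaled by library size alone it was -0.05, on a scale where the median of all genes lay at 0.21 at 4 days in place of 0.006. At 8 and 11 days it was -0.01 ± 0.10 (edgeR adjusted p = 0.985) and -0.04 ± 0.10 (edgeR adjusted p = 0.884). The antisense gene A930016O22Rik overlaps Ckm, and without a stated strand setting their reads cannot be told apart; it held at most 3.41 CPM.

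Ckmt2 (ENSMUSG00000021622.3, chr13:91853387-91876885, minus strand) stood at 758, 661, 663 and 806 CPM in saline A to D. After 4 days it stood at 680, 867, 634 and 802 CPM, across the saline range. After 8 days it stood at 856, 1052 and 818 CPM, above every saline library. After 11 days it stood at 972, 904, 794 and 761 CPM, with A and B above saline and C and D inside its range. None of these differences passed the test: the log2 fold change was 0.05 ± 0.11 at 4 days (SE, edgeR adjusted p = 0.864), 0.33 ± 0.12 at 8 days (edgeR adjusted p = 0.221) and 0.24 ± 0.097 at 11 days (edgeR adjusted p = 0.218). The unadjusted intervals at 8 days, 0.07 to 0.58, and at 11 days, 0.03 to 0.45, lay above 0. In FPKM, Ckmt2 spanned 500 to 574 in saline and 606 to 737 at 11 days, above saline in every library. On that scale it spanned 569 to 669 at 4 days and 467 to 741 at 8 days, both overlapping saline. No alternative called Ckmt2 against saline at any time. The antisense gene 1700119I11Rik overlaps Ckmt2 and held at most 13 counts in a library.

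Ckmt1 (ENSMUSG00000000308.14, chr2:121357714-121363737, plus strand) held 6, 0, 6 and 1 counts in saline A to D and 7, 4, 14 and 2 counts in the 4-day libraries. It held 1 count in each 8-day library and 4, 4, 1 and 2 counts in the 11-day libraries. These values overlapped, and at this depth no difference was detectable. The 4-day interval of the log2 fold change alone ran from -0.64 to 2.06.

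Across the 7 genes, 4 passed edgeR's test as higher at 4 days, where 6.05% of all 26862 genes tested did, and 0 as lower, where 3.4% did. At an unadjusted p under 0.05 Ckm was lower at 4 days, and limma voom called it too. In either direction, 5959, 3494 and 4617 of all 26862 genes had an unadjusted p under 0.05 at 4, 8 and 11 days. At 8 days 1 gene was higher, against 1.07% of all genes, and 0 lower, against 1.2%. At 11 days again 1 gene was higher, against 1.8%, and 0 lower, against 1.95%, and no member was lower at an unadjusted p under 0.05 at either time by edgeR. DESeq2 likewise called 0 lower at these times. The median log2 fold change of the 7 genes was 0.43 at 4 days, 0.31 at 8 days and -0.03 at 11 days, beside 0.006, -0.01 and -0.01 for all genes tested.

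The time points were then compared directly in a fit of all 4 groups. From 4 to 11 days Ckb fell by 0.58 on the log2 scale (SE 0.10, edgeR adjusted p = 0.00152), with all 11-day libraries below all 4-day libraries. Gatm fell by 0.71 (SE 0.16, edgeR adjusted p = 0.00844), again with no overlap. These were the 2 of 7 genes past the threshold, beside 8.11% of all genes. The difference for Gamt, -0.61 ± 0.20, missed it (edgeR adjusted p = 0.0701). It passed without 11-day B (-0.82, edgeR adjusted p = 0.0159) and without 4-day B (-0.71, edgeR adjusted p = 0.0277), and without 4-day B Ckm passed too (0.31, edgeR adjusted p = 0.0466). Between 8 and 4 days 0 of 7 genes passed, beside 1.02% of all genes, with 4 genes at an unadjusted p under 0.05. Ckb was nearest, at -0.41 ± 0.11 (edgeR adjusted p = 0.0906), and passed without 8-day C (-0.56, edgeR adjusted p = 0.0327). Between 11 and 8 days 0 of 7 passed, beside 0.00372% of all genes, with 1 gene at an unadjusted p under 0.05. Between times the unadjusted counts have no share over all genes beside them, so they cannot be read as a result about these genes. By the F test over all 4 groups, Slc6a8 (edgeR adjusted p = 0.000576), Ckb (0.00304), Gatm (0.00958) and Gamt (0.0103) changed, 4 of 7 beside 13% of all genes.

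Markers of other cells moved at the same times. At 4 days, 8 of 8 fibroblast markers rose, and their summed level was 1140 to 4261 CPM against 378 to 487 CPM in saline. It was 635 to 1251 CPM at 8 days, with 4 of 8 higher, and 506 to 976 CPM at 11 days, with 2 of 8 higher. At 4 days 5 of 6 markers of activated fibroblasts rose (144 to 705 CPM, against 17.3 to 32.1 CPM), 9 of 9 macrophage markers rose (212 to 361 CPM, against 107 to 172 CPM) and 5 of 5 markers of dividing cells rose (24.8 to 79.4 CPM, against 6.33 to 13.4 CPM). At 11 days 0 of 6, 1 of 9 and 0 of 5 of these were higher, and 3 of the 5 dividing-cell markers were lower. No marker of these lists was at 0 throughout a group. The part of these cells in the rise of Ckb, Gatm and Gamt was not tested. Of the 14 cardiomyocyte markers 2 were higher and 5 lower at 4 days, with sums of 72198 to 81951 CPM against 75290 to 84088 CPM in saline, and their part in the levels of Ckm was not tested. None of the 6 endothelial and 6 smooth muscle and pericyte markers passed edgeR's test at any time, with 0 and 2 at an unadjusted p under 0.05 at 4 days, 1 and 3 at 8 days, and 1 and 0 at 11 days. Of 4 blood markers 2 were lower at 4 days (Hbb-bs and Alas2), 0 at 8 days and 2 at 11 days (Hba-a1 and Alas2), with median log2 fold changes of -1.53, -1.10 and -1.43 and sums of 25.7 to 137 CPM at 4 days, 58.6 to 133 CPM at 8 days and 43.4 to 138 CPM at 11 days against 73.3 to 383 CPM in saline, and their part in the results was not tested.

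Within the creatine kinase family the balance of transcripts was described without a test, since the ratio of 2 genes in a library does not depend on scaling between libraries. The FPKM ratio of Ckmt2 to Ckm was 1.003, 0.951, 1.02 and 1.04 in saline A to D. It was 1.28, 1.21, 1.06 and 1.46 in the 4-day libraries, 1.29, 1.46 and 1.14 in the 8-day libraries, and 1.29, 1.26, 1.35 and 1.04 in the 11-day libraries. All 11 treated libraries lay above the highest saline library on this scale, 11-day D by the smallest margin. From counts not divided by length, an alternative added after the data were seen, the ratio was 1.29 to 1.43 in saline and 1.41 in 11-day D, which then fell inside the saline range, while the other 10 treated libraries spanned 1.44 to 1.98.

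Ckb made up 0.666 to 0.788% of creatine kinase FPKM in saline and 0.812 to 1.19% at 4 days, without overlap. Its share was 0.53 to 0.762% at 8 days and 0.521 to 0.687% at 11 days, both overlapping saline. Ckmt1 made up at most 0.0122% in any library.

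**Figure D3:**
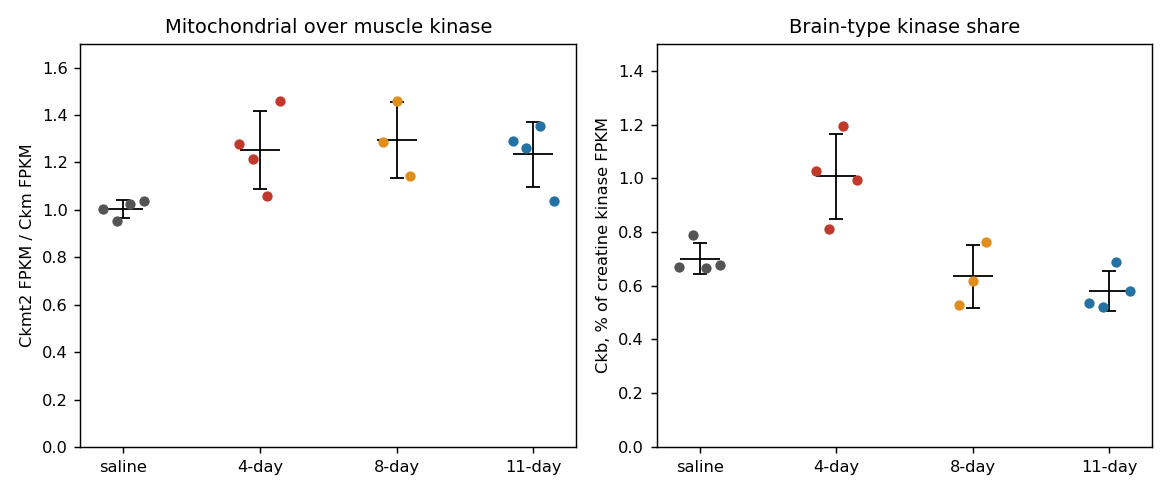
Left, the ratio of Ckmt2 to Ckm FPKM; right, Ckb as a percent of the summed FPKM of the 4 creatine kinases, both on linear axes from 0, in the saline, 4-day, 8-day and 11-day groups, with points for libraries and bars for the mean ± SD. The ratio is 0.951 to 1.04 in saline and reaches 1.46 at 4 and 8 days, and the Ckb share is highest at 4 days.

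The transcripts behind these gene values were estimated by the authors as percentages of each gene. Ckm-201, the transcript with 7 exons, made up 49.6 to 56.7% of Ckm in 14 libraries and 33.7% in 8-day A. Ckm-202, a transcript of 5 exons that starts upstream at base 19404776, made up 36.0 to 41.7% in those 14 and 50.2% in 8-day A. Ckm-203 made up the rest. 8-day A therefore stood apart in its Ckm transcripts as it did in its Lars2 and CT010467.1 counts. Ckm-201 and Ckm-203 are annotated as protein-coding, and Ckm-202 as a processed transcript. The start of Ckm-202 lies outside the window shown for Ckm. The Ckm gene values, and the ratio of Ckmt2 to Ckm, include Ckm-202. Ckmt2 had 1 annotated transcript. Ckb-201 took 93.4 to 98.5% of Ckb, with the lowest shares at 8 days.

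Slc6a8-203 took 57.6 to 73.9% of Slc6a8, lowest in 8-day A, and Slc6a8-201 took 8.53 to 20.3%. The 11-day libraries, at 70.2 to 73.9% of Slc6a8-203, lay above all saline libraries, at 63.5 to 69.5%. Gatm-201 took 91.7 to 100% at 4 days and 78.7 to 93.2% in saline. Its later shares were 72.0 to 93.1% at 8 days and 82.0 to 100% at 11 days. Gamt-202 took 84.0 to 92.6% at 4 days and 54.9 to 86.6% in saline. Its share was 89.3 to 94.8% at 8 days, above every saline library, and 74.3 to 82.2% at 11 days, inside the saline range. The shares of both genes rest on counts as low as those given above.

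**Figure D4:**
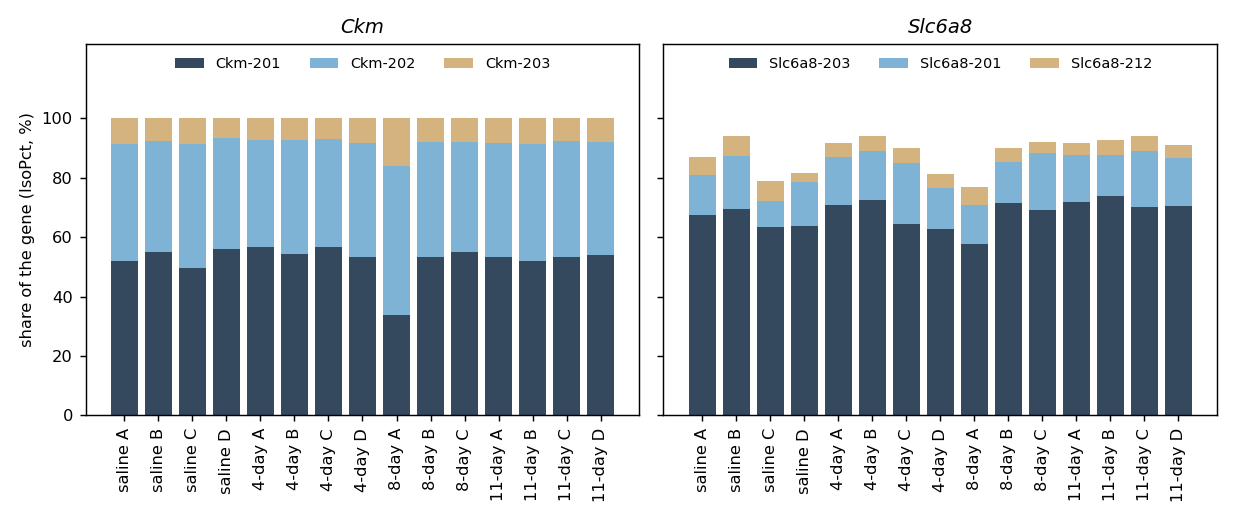
Share of each gene's RNA (y axis, IsoPct in percent, bars from 0) given by the 3 transcripts of Ckm and by 3 of the 13 transcripts of Slc6a8 in each of the 15 libraries (x axis); the space up to 100 in Slc6a8 belongs to its other transcripts. 8-day A stands apart with 33.7% of Ckm-201.

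Around these genes, lists of the connected pathways were read by the same test. Of 19 tested genes of arginine, glycine and methyl donor supply, which feed creatine synthesis, 2 were higher and 4 lower at 4 days, 0 and 1 at 8 days, and 1 and 1 at 11 days. Over all genes tested, 6.05% were higher and 3.4% lower at 4 days, 1.07% and 1.2% at 8 days, and 1.8% and 1.95% at 11 days, and the lists that follow are to be read beside these shares. Their unadjusted counts are to be read beside 5959, 3494 and 4617 of 26862 genes at an unadjusted p under 0.05 at 4, 8 and 11 days. The median log2 fold change of the 19 genes was -0.04, -0.01 and 0.06, near that of all genes. Slc7a1, a carrier of arginine and other cationic amino acids, fell at all 3 times, from 17.5 to 23.8 CPM in saline to 10.7 to 18.3, 8.63 to 12.7 and 7.87 to 13.3 CPM, and its log2 fold change was -0.55, -0.97 and -0.91 (edgeR adjusted p = 0.0321, 0.00317 and 0.00272). Slc7a2, a related carrier, rose at 4 days from 2.16 to 2.91 CPM in saline to 3.18 to 5.25 CPM, by 0.90 on the log2 scale (edgeR adjusted p = 0.00373). Its later values were 0.45 and 0.17 (edgeR adjusted p = 0.295 and 0.644). Ass1, which makes argininosuccinate on the way to arginine, rose at 4 days by 1.38 (edgeR adjusted p = 0.00409) from a level of 0.844 to 1.35 CPM, and stood at 0.87 and 0.73 at 8 and 11 days (edgeR adjusted p = 0.0595 and 0.0597). The other genes past the threshold were Oat, Mat2a and Mtr, lower at 4 days, and Ahcy, higher at 11 days.

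Among 14 tested genes of adenylate kinases and AMP turnover, 0 were higher and 2 lower at 4 days, 0 and 1 at 8 days, and 0 and 0 at 11 days, beside 3.4% and 1.2% of all genes lower at 4 and 8 days, with medians of 0.04, -0.02 and 0.07. Ak4, a mitochondrial adenylate kinase, fell from 19.2 to 23.6 CPM in saline to 12.0 to 17.9 CPM at 4 days and 13.0 to 13.7 CPM at 8 days, without overlap. Its log2 fold change was -0.54 and -0.73 (edgeR adjusted p = 0.0130 and 0.00215), and -0.31 at 11 days (edgeR adjusted p = 0.0932). Adk, the adenosine kinase, fell by 0.42 on the log2 scale at 4 days (edgeR adjusted p = 0.0348) and stood at -0.37 and -0.21 later (edgeR adjusted p = 0.106 and 0.194). Nt5c1a, a nucleotidase that acts on AMP, was at -0.34, -0.43 and -0.39 and passed no test (edgeR adjusted p = 0.0962, 0.210 and 0.0778). At 11 days 6 genes of this list had an unadjusted p under 0.05, beside 4617 of all 26862 genes.

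AMPK, the kinase that senses AMP, had 11 subunits and activators tested, with 0 higher and 1 lower at 4 days and none past edgeR's threshold later (1 at an unadjusted p under 0.05 at each later time), and medians of 0.002, 0.07 and 0.05. Prkaa2, its catalytic subunit of muscle, fell from 112 to 120 CPM to 85.7 to 100.6 CPM at 4 days, a log2 fold change of -0.28 (edgeR adjusted p = 0.0488). Prkag2, a regulatory subunit, was at 0.35 at 4 days (edgeR adjusted p = 0.0708) and Stk11, an upstream kinase, at -0.20 (edgeR adjusted p = 0.111). At 8 and 11 days Prkag2 stood at 0.12 and -0.12 and Stk11 at 0.03 and 0.11.

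None of 7 genes of mitochondrial ADP, ATP and phosphate exchange passed edgeR's test at any time, with 3, 3 and 1 of them at an unadjusted p under 0.05 at 4, 8 and 11 days and medians of -0.07, -0.17 and 0.02. The muscle ADP/ATP carrier gene Slc25a4 was at -0.36, -0.26 and 0.06 on the log2 scale, the widely used carrier gene Slc25a5 at 0.31, 0.12 and 0.15, and the outer membrane channel gene Vdac1 at -0.26, -0.24 and -0.20. The lowest edgeR adjusted p among these was 0.0600, for Slc25a5 at 4 days.

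Of 4 genes of M-band and sarcomere partners of creatine kinase, Myom2, which encodes an M-band protein, fell at 4 days, from 645 to 790 CPM in saline to 322 to 518 CPM. The log2 fold change was -0.69 ± 0.14 (SE, edgeR adjusted p = 0.00645), then -0.26 and 0.03 at 8 and 11 days (edgeR adjusted p = 0.329 and 0.931). Myom1, its relative, was at -0.07, -0.02 and -0.05, and Fhl2 at 0.22, 0.12 and 0.19, and none of these passed the test.

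Of 8 tested SLC6 transporter genes other than Slc6a8, 0 passed edgeR's test at 4 and 8 days, with 0 and 1 at an unadjusted p under 0.05, and Slc6a6, the taurine transporter gene, was lower at 11 days. Slc6a6 stood at 52.0 to 63.6 CPM in saline and 40.1 to 48.7 CPM at 11 days, a log2 fold change of -0.35 (edgeR adjusted p = 0.0327), after -0.17 and -0.11 at 4 and 8 days. Slc6a15 and Slc6a20a, chosen by the same rule, reached at most 0.0844 CPM in any library. Of 7 genes of nucleoside diphosphate kinases and ATP-forming glycolytic kinases, Nme1 was lower at 8 days (-0.59, edgeR adjusted p = 0.0368) and at 11 days (-0.44, edgeR adjusted p = 0.0382) and stood at 0.02 at 4 days. Pgk1 was at 0.30, -0.04 and 0.06, and Nme3 at 0.34, -0.07 and 0.28, both past no threshold.

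**Figure D5:**
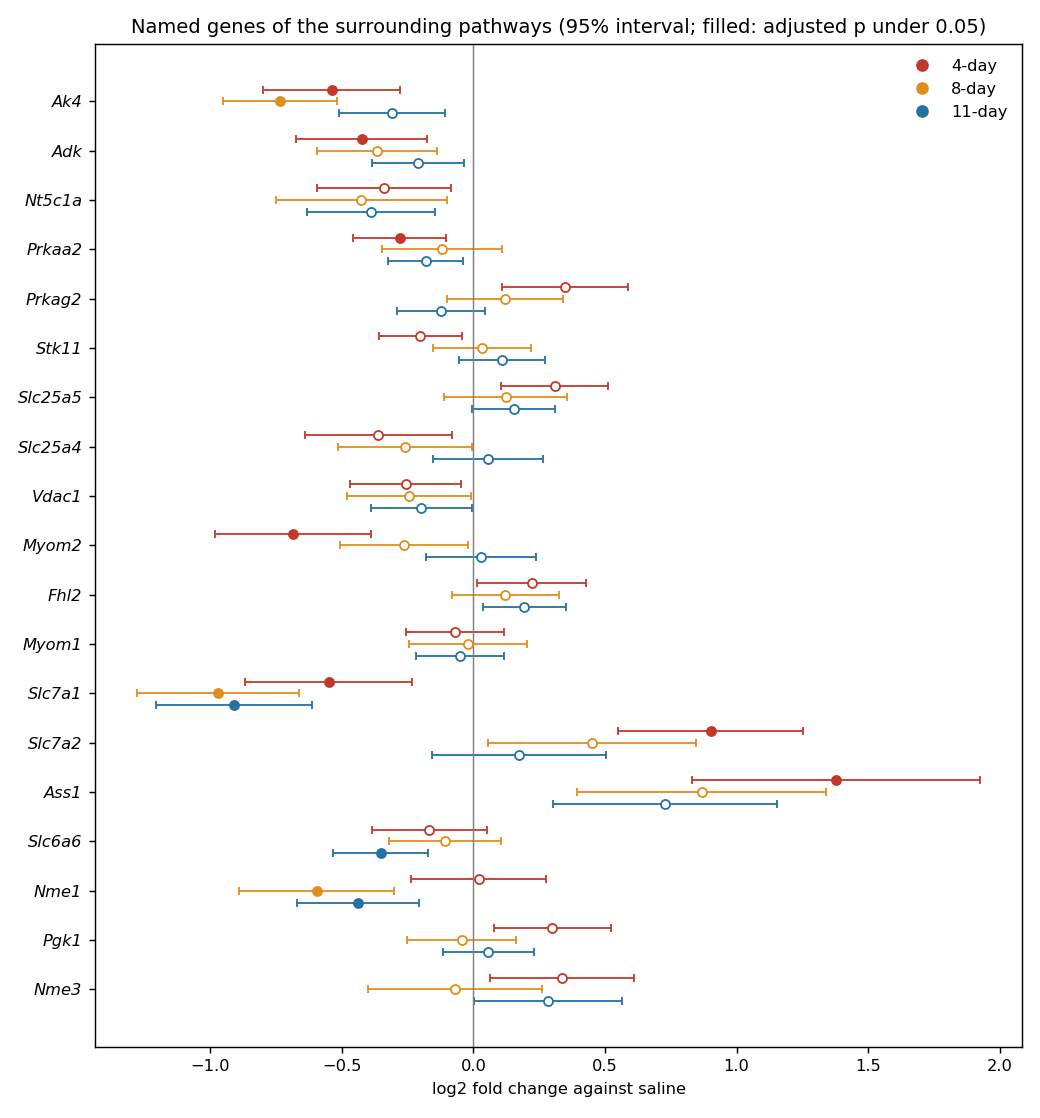
Log2 fold change against saline (x axis) of 19 genes from 7 lists around creatine kinase after 4, 8 and 11 days; dots are edgeR estimates, bars their 95% intervals, and filled dots have an adjusted p under 0.05. Slc7a1 lies below 0 at all 3 times, Slc7a2 and Ass1 above 0 at 4 days, and Myom2 and Prkaa2 below 0 at 4 days.

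Genes whose log2 CPM over the 15 libraries was most like that of a member were listed as a description, among 8539 genes with a mean of at least 5 CPM. The libraries share treatment and depth, so that no p is given. For Slc6a8 they were Phospho1 (Pearson r = 0.952, Spearman rho = 0.932), Csdc2 (0.952 and 0.932) and Exd2 (0.932 and 0.875). Csdc2, which encodes a cold-shock domain RNA-binding protein, had a mean of 14.7 CPM in saline and 21.3, 27.3 and 23.2 CPM at 4, 8 and 11 days. For Ckb they were Aopep (r = 0.921), Dpp3 (0.915) and Cyb561 (0.900). For Ckm they were Cyfip2 (r = 0.902), Iscu (0.858) and Uqcrq (0.856), and for Ckmt2 Acot11 (0.946), Smco1 (0.908) and Ttc4 (0.870). Cyfip2, a member of the WAVE complex, had a mean of 119 CPM in saline and 92.3 CPM at 4 days. Both genes were picked by likeness over these same libraries, so their levels lend no support to a change of Slc6a8 or Ckm. Gatm, Gamt and Ckmt1 lay under 5 CPM and were not compared.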

How the data were processed

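Total RNA sequencing gave 15 libraries from mouse heart. Per the submitters' processing notes the authors used cutadapt 4.1, HISAT2 2.2.1 and RSEM 1.3.3 on GRCm38.p6, and the strand setting is not given in the sources used here. The authors deposited RSEM expected counts, which are estimated counts and not normalized, with FPKM and TPM, which RSEM normalizes by effective length and library total. The authors also deposited effective lengths and, for transcripts, IsoPct, the percent of a gene's abundance given by a transcript. Libraries held 25.4 to 117.8 × 10⁶ counts, and the number of libraries limits the precision.

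Counts were rounded to whole numbers, and the 26862 genes whose counts summed to 10 or more over the libraries were tested. Each isoproterenol group was compared with saline in a fit of its own by edgeR 4.0.16 in R 4.3.3 (quasi-likelihood test, two-sided) with TMM scaling, Benjamini-Hochberg adjustment over all genes tested and a threshold of 0.05. Times were compared, and the F test made, in a fit of all 4 groups. SE is that of the log2 fold change, and intervals are at 95%. The scripts were tested on simulated data. Named were the 7 genes, of each pathway list the up to 3 genes with the smallest p, and the 3 genes with the highest Pearson correlation of log2 CPM (prior count 2) to each member of at least 5 CPM. Genes and lists were chosen with earlier results of these data known. Positions came from GENCODE M21 on GRCm38 and windows around starts from RefSeq.

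Alternatives were scaling by library size or DESeq2 size factors, mitochondrial genes, Lars2 and CT010467.1 left out, other filters, effective lengths as offsets, a joint fit of all groups, robust dispersions, DESeq2 1.42.0 with and without lengths, limma 3.58.1 (voom with quality weights, or log2(FPKM + 1)), a replicate block, and each library left out. Replicate letters do not say which animals belong together: correlations between same-lettered libraries of saline and a treated group ran from -0.38 to 0.16, and 1 of 11 was over 0.1, so the letters were not taken as pairs.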

Additional observations from a re-analysis of the deposited data

Results flagged for a closer look

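The effect of isoproterenol differed between times for Ckb and Gatm by a direct test of 11 against 4 days. The log2 difference was -0.58 ± 0.10 for Ckb (SE, edgeR adjusted p = 0.00152) and -0.71 ± 0.16 for Gatm (edgeR adjusted p = 0.00844), and both were lower at 11 days in 4 of 4 libraries. No library of the saline, 4-day or 11-day group stood apart from its group in any of the 7 genes by Dixon's test, which chance would flag in about 1 of 20 groups, and the 8-day group of 3 was not tested.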

How the results depend on the processing

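Of the calls against saline, Ckb, Slc6a8 and Gamt at 4 days held under all 21 alternatives, Gatm at 4 days under 19 of 21 (not with effective lengths or on log2(FPKM + 1)), and Slc6a8 under 18 of 20 at 8 days and 20 of 21 at 11 days. From 4 to 11 days Ckb and Gatm held under all 21 alternatives run for that comparison, and no called gene changed direction. Those 21 were edgeR fits only, with changed settings or a library left out. DESeq2, limma and the other filters were run only for the comparisons with saline. By library size alone 0 member genes were higher at 8 days and 1 changed between 8 and 4 days (Gamt, log2 difference -1.02, edgeR adjusted p = 0.0424). On log2(FPKM + 1) 0 were higher at 8 and 11 days, and limma voom called 1 lower at 4 days, in place of 0. The cause of these differences was not tested. Leaving out each library gave 0 to 1 member genes lower at 4 days (1 without 4-day B), 0 to 1 changed between 8 and 4 days (1 without 8-day C) and 2 to 4 changed between 11 and 4 days (4 without 4-day B). Between times, the share over all genes was not counted under the alternatives, so these member counts have no such share beside them. With the replicate block the 4-day calls stayed, Slc6a8 at 0.40 (edgeR adjusted p = 0.0277) and Gamt at 1.02 (edgeR adjusted p = 0.00371), and the block changed no other call of the 7 genes. Since the letters share only a number, this is no paired test.

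Over all genes, library size alone gave 2533 higher and 293 lower at 4 days in place of 1626 and 914. On log2(FPKM + 1) there were 717 higher and 117 lower at 4 days, 0 and 0 at 8 days (288 and 322 by edgeR), and 69 and 26 at 11 days (483 and 523 by edgeR). DESeq2 without lengths gave up to 539 lower at 8 days and 880 at 11 days. Without single libraries the counts ran from 891 to 1924 higher and 496 to 1206 lower at 4 days, 127 to 429 and 132 to 483 at 8 days, and 231 to 675 and 268 to 747 at 11 days, with the lowest counts without 4-day A, without 8-day C, and without 11-day A (higher) or B (lower). Other libraries that each moved a count by over 1.5 times were saline A, saline C, 4-day C, 8-day A, 8-day B, 11-day C and 11-day D. Groups of 3 or 4 libraries and counts under 300 for Gatm and Gamt limit the precision.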
